A study of Mus musculus with 20 samples.

Results

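Glomerular endothelial cells (GEC) were taken as all cells that carry the cluster name GEC in the first of the 2 deposited annotations of the mouse kidney after ischemia reperfusion injury (IRI), with no further selection. The cluster held 5848 of 113579 cells, from 18 single-cell RNA-seq libraries whose cells fall into 18 clusters. Levels of Emcn (endomucin, a sialomucin of capillary endothelium) and Kdr (the VEGF receptor 2 gene), both used as markers of the cluster, were not analysed here, so the cell type name rests on the annotation of the authors. The results below are numbers, shares and map positions of cells, not expression values.

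GEC line the capillary loops of the glomerulus. Their fenestrated wall, coated by a glycocalyx, is the blood side of the filtration barrier, which the basement membrane and the podocytes complete. VEGF-A from podocytes acts on Kdr of GEC and is needed to keep the fenestrae open. Emcn and Kdr are also expressed by the capillaries between the tubules, which are endothelium of another bed and receive blood that has left the glomeruli.

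Kidneys came from male C57BL/6 mice of 10 to 12 weeks that carried no transgene named in the sources used here. Control mice gave 6 libraries, bilateral renal ischemia of 23 min (IRI short) gave 6, and ischemia of 30 min (IRI long) gave another 6, with 2 libraries each at 1, 3 and 14 d. A second annotation adds 1 library from IRI long at 14 d with VX-765 (100 mg/kg, a caspase-1 inhibitor) and 1 with liproxstatin (10 mg/kg, an inhibitor of ferroptosis), each injected before and daily after ischemia, and no vehicle-treated library was analysed here. Each library was taken as 1 mouse, and p-values measure the spread between these libraries. Libraries held 2064 to 14320 cells and 91 to 811 GEC, and they are called by the start of their cell names: Scl and norm1 to norm5 in control, and names that begin with IRF, for a library and not a gene, after ischemia.

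The makeup of the other cells moved with the groups. Immune cells made up 10.8% of a control library on average, 48.9% after short and 67.4% after long ischemia, while proximal tubule (PT) cells fell from 49.5% to 11.3% and 8.11%. A percentage of captured cells cannot be told apart from a change in how many other cells were captured, so GEC were counted against several denominators. In 5 of the 6 control libraries, all but norm5, the barcodes came from a smaller set than in the IRI libraries, so that set and the control group cannot be told apart in these 5. Values of norm5 are therefore given beside the cell shares of control. Barcodes were little shared, since 131 GEC (2.24%, against 2.40% of all cells) had a barcode that also occurs in another library, and only 4 of the 132 counterparts were GEC.

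Among all cells, GEC rose after short ischemia. In control, GEC made up 2.06% of cells in Scl, 3.11% in norm1, 3.22% in norm2, 4.01% in norm3, 4.71% in norm4 and 1.89% in norm5. In IRI short the shares were 5.65% and 5.77% at 1 d, 6.57% and 9.28% at 3 d (IRF3 and IRF11), and 5.11% and 6.57% at 14 d (IRF8 and IRF10). In IRI long they were 9.31% and 10.3% at 1 d (IRF1 and IRF5), 5.85% and 8.04% at 3 d (IRF4 and IRF7), and 3.61% and 2.34% at 14 d (IRF9 and IRF12). All 6 IRI short libraries and the 4 IRI long libraries of 1 and 3 d lay above every control library, and both IRI long libraries of 14 d lay within the control range. Of the 18 clusters, 44.4% lay above control without overlap in IRI short and 27.8% in IRI long.

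**Figure D1:**
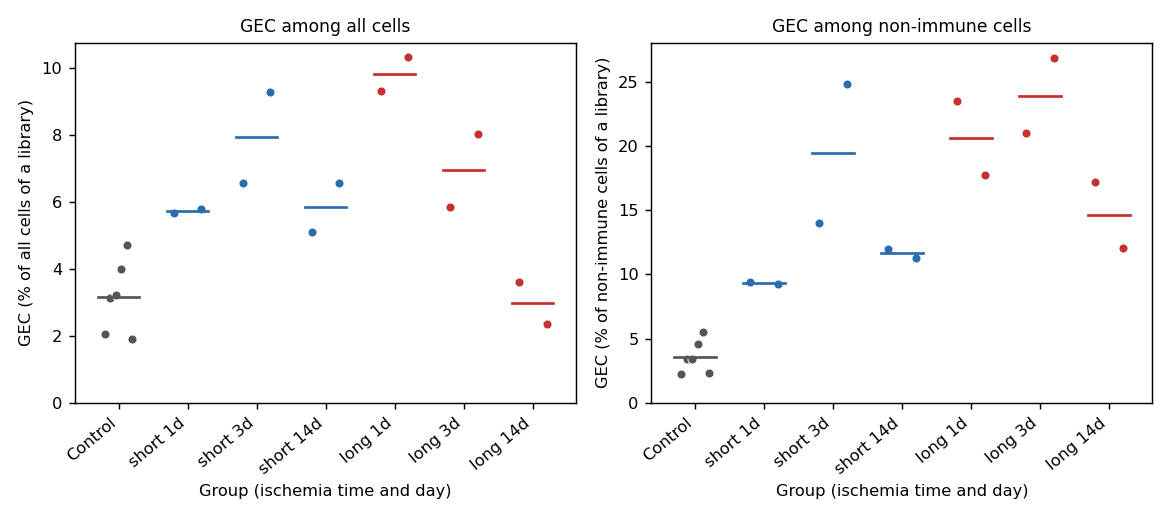
Percentage of GEC among all cells (left) and among non-immune cells (right) in each of 18 libraries (points), with the mean of each group (lines), by ischemia time and day. Among all cells the IRI long libraries run from 9.31 and 10.3% at 1 d down to 3.61 and 2.34% at 14 d, within the control range of 1.89 to 4.71%, whereas among non-immune cells all 12 IRI libraries lie above the highest control library, 5.49%.

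The mean share was 3.17% ± 1.09 (SD, n = 6) in control, 6.49% ± 1.48 after short and 6.58% ± 3.19 after long ischemia. IRI short exceeded control by 3.33 percentage points (two-sided exact permutation test, p = 0.00216, adjusted p = 0.00928 over 30 tests of GEC measures). IRI long exceeded control by 3.41 percentage points (exact permutation p = 0.0411), and after adjustment this difference missed the threshold of 0.05 (adjusted p = 0.0771). The raw p rose above 0.05 when any one of Scl, norm1, norm2, norm5, IRF1, IRF5, IRF4 and IRF7 was left out, with p up to 0.0779 and differences of 2.66 to 3.56 points in these fits. The 2 ischemia times differed by 0.0889 points, with a permutation p within days of 0.944 (exact), since the higher values of IRI long at 1 d were offset by its lower means at 3 and 14 d. By limma on the logit scale, described next, that difference was -0.091 with a 95% interval from -0.56 to 0.38. Every IRI library lay above norm5.

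The days were compared with limma on the logit of the GEC fraction, fitted over all 18 clusters with adjustment over them. GEC rose by 0.78 ± 0.224 (SE, logit scale) in IRI short over all days (adjusted p = 0.00411) and by 0.69 ± 0.224 in IRI long (adjusted p = 0.00743). With the barcode set as a term, so that norm5 is in effect the control, these rises were 1.26 (limma, adjusted p = 0.0107) and 1.17 (adjusted p = 0.0118). In these comparisons 66.7% of the clusters passed the test for IRI short and 83.3% for IRI long, 50.0% of the clusters as higher in each, so a call was the usual outcome for a cluster. By day, the rise was 1.25 in IRI long at 1 d (limma, adjusted p = 0.00150, with 61.1% of clusters called), 0.86 at 3 d (adjusted p = 0.0176, 88.9% called) and, in IRI short, 1.00 at 3 d (adjusted p = 0.00789, 72.2% called). The call at 3 d was lost without IRF11 in IRI short (change 0.82, adjusted p = 0.0975) and without IRF7 in IRI long (0.69, adjusted p = 0.140).

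At the other days GEC did not pass the limma test. The change was 0.67 in IRI short at 1 d (adjusted p = 0.0743, 55.6% of clusters called) and 0.68 at 14 d (adjusted p = 0.0620, 55.6% called), and without norm4 both passed (0.76 with adjusted p = 0.0426, and 0.78 with adjusted p = 0.0383). Both also passed with the barcode set as a term (1.14 with adjusted p = 0.0376, and 1.16 with adjusted p = 0.0448). In IRI long at 14 d it was -0.036, with a 95% interval from -0.70 to 0.63 (adjusted p = 0.910, 72.2% called). IRI long and IRI short at 14 d differed by -0.72 (interval -1.53 to 0.096, limma adjusted p = 0.180), with 33.3% of clusters called. The change from 1 d to 14 d differed between the ischemia times by -1.30 (IRI long minus IRI short, limma), which missed the threshold after adjustment (adjusted p = 0.129, unadjusted p = 0.0287, 11.1% called). Against the geometric mean of all 18 clusters (centred log-ratio) the direction turned, to -0.35 (IRI short) and -0.28 (IRI long), neither of which passed.

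Among non-immune cells GEC rose in both ischemia times, and the 14 d libraries of IRI long no longer lay within the control range. The share ran from 2.20 to 5.49% in control (median 3.41%), from 9.29 to 24.9% in IRI short (median 11.7%) and from 12.0 to 26.9% in IRI long (median 19.4%). The means were 3.57% ± 1.29 (SD, n = 6), 13.5% ± 5.86 and 19.7% ± 5.23, and both IRI groups exceeded control (by 9.94 and 16.2 points, exact permutation p = 0.00216 and adjusted p = 0.00928 for each). All 6 libraries of each ischemia time lay above every control library. Of the 10 non-immune clusters, 20.0% stood above control without overlap in IRI short and 20.0% in IRI long. In norm5 the share was 2.30%.

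IRI long exceeded IRI short among non-immune cells by 6.25 points (exact permutation p within days = 0.0370, adjusted p = 0.0741). By day the means of IRI short were 9.37, 19.5 and 11.7% at 1, 3 and 14 d, and those of IRI long were 20.7, 24.0 and 14.6%. At 1 d both IRI long libraries (IRF1 23.6%, IRF5 17.7%) lay above both IRI short libraries (9.45% in IRF2, the higher value), and at 3 d the ranges overlapped, with IRF11 of IRI short at 24.9% between IRF4 at 21.1% and IRF7 at 26.9%. The raw p rose above 0.05 in 6 of the 12 fits without 1 library, among them those without IRF2, IRF8, IRF10, IRF4 and IRF7, with p from 0.0648 to 0.176 and differences of 4.82 to 5.98 points.

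PT cells fell among the non-immune cells, so the share was also taken among cells that were neither immune nor PT. GEC then made up 8.30% in control on average, 17.4% after short and 28.3% after long ischemia. In control this share ran from 3.64 to 11.4%, and IRF2 of IRI short (1 d), at 11.3%, lay within that range. In IRI long the lowest library was IRF5 at 20.1%, and IRF9 and IRF12 at 14 d were both at 28.4%.

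Endo, the other endothelial cluster, rose more than GEC, so that GEC became a smaller part of the endothelium. Endo held 1552 cells, at 0.253% of a control library on average, 1.31% after short and 2.81% after long ischemia, and on the logit scale it rose by 1.76 and 2.20, respectively (limma, adjusted p = 3.32e-05 and 1.71e-06). Of the GEC and Endo cells together, GEC were 91.9% in Scl, 86.6% in norm1, 86.6% in norm2, 96.8% in norm3, 97.0% in norm4 and 96.2% in norm5. In IRI short they were 75.1 and 84.5% at 1 d, 78.3 and 84.8% at 3 d, and 85.9 and 91.3% at 14 d, in the library order given above. In IRI long they were 63.5 and 68.4% at 1 d, 69.0 and 72.2% at 3 d, and 84.2 and 88.7% at 14 d. In each ischemia time 5 of 6 libraries lay below every control library, and the exceptions, IRF10 and IRF12, were both from 14 d.

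**Figure D2:**
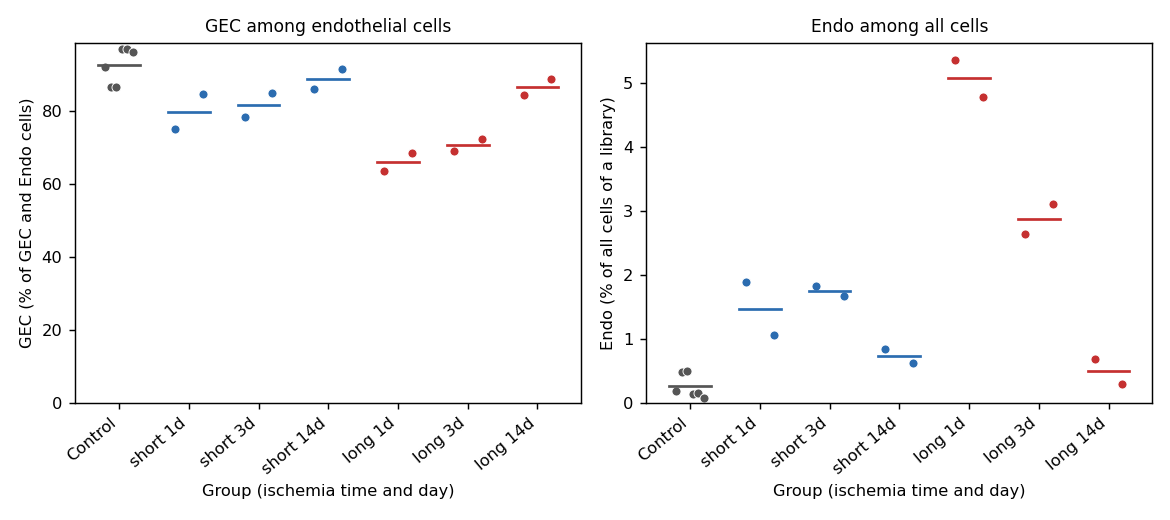
GEC as a percentage of GEC and Endo cells together (left) and Endo as a percentage of all cells (right), in each library (points) with group means (lines). GEC fall from 86.6 to 97.0% of the endothelial cells in control to 63.5 and 68.4% in IRI long at 1 d, where Endo reach 5.36 and 4.78% of all cells.

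GEC fell by 9.20 percentage points of the endothelial cells in IRI short, from 92.5% ± 4.94 in control to 83.3% ± 5.79 (SD, n = 6, exact permutation p = 0.0130, adjusted p = 0.0390), and by 18.2 points in IRI long, to 74.3% ± 9.91 (exact permutation p = 0.00649, adjusted p = 0.0216). Without any one library the raw exact permutation p was at most 0.0346 for IRI short and 0.0152 for IRI long, without adjustment. IRI long differed from IRI short by -8.99 points (exact permutation p within days = 0.0185, adjusted p = 0.0505). In libraries thinned to the smallest the difference was -5.53 points (exact permutation p = 0.102), and permuted without days its raw p was 0.0801. The raw p within days rose above 0.05 without IRF8, IRF10, IRF1 or IRF5, with differences of -8.48, -7.39, -6.82 and -7.81 points and p up to 0.111. The share uses neither immune nor tubule cells. Small numbers of Endo set its precision in control, where norm3 held 3 Endo cells beside 91 GEC (exact 95% Clopper-Pearson interval 91.0 to 99.3%, counting error only).

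The GEC cluster did not lie in one place of the UMAP that was deposited with the first annotation. Most GEC fell on 2 islands, groups of GEC and Endo cells that are linked by neighbours within a distance of 0.5 UMAP units. A lone island held 3273 GEC (56.0%) and no Endo cell, and 99.8% of the cells within reach of it were GEC. A shared island held 2486 GEC (42.5%) together with all 1552 Endo cells, which made up 38.4% of the endothelial cells there. The remaining 89 GEC (1.52%) were scattered in other parts of the map, where on average 1.84% of their 30 nearest neighbours were GEC. The islands were defined after the map had been seen, and distances between islands of a UMAP have no unit and no direct meaning.

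**Figure D3:**
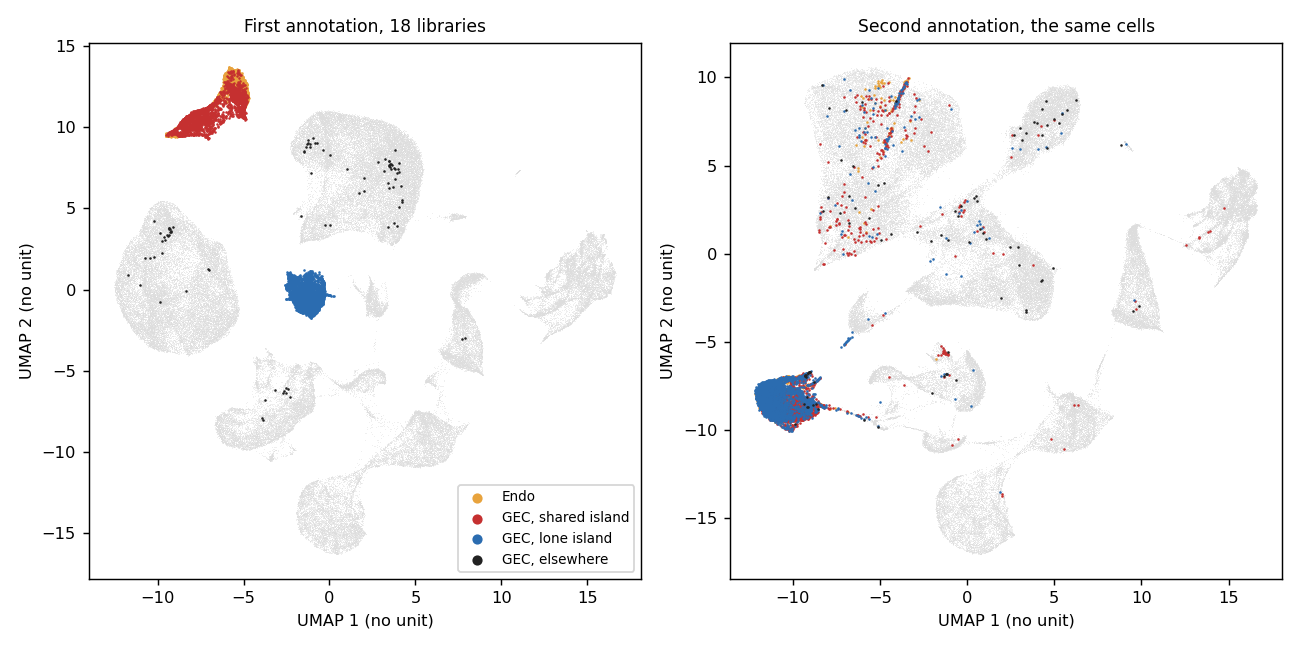
UMAP of the first annotation (left) and positions of the same cells in the UMAP of the second annotation (right), with axes that have no unit and all other cells in gray. In the left map the 3273 GEC of the lone island (blue) lie apart from the 2486 GEC (red) that share an island with 1552 Endo cells (orange), and in the right map GEC of both islands mostly lie in one group.

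The part of GEC on the shared island changed with the day after ischemia. In control it was 16.3% in Scl, 33.3% in norm1, 31.9% in norm2, 25.3% in norm3, 16.8% in norm4 and 3.97% in norm5. In IRI short it was 54.5 and 34.4% at 1 d, 53.8 and 39.3% at 3 d, and 22.1 and 18.1% at 14 d. In IRI long it was 78.7 and 65.7% at 1 d, 75.0 and 66.9% at 3 d, and 19.2 and 11.5% at 14 d. All 8 IRI libraries of 1 and 3 d lay above every control library, all 4 IRI long ones among them also lay above every IRI short library, and all 4 libraries of 14 d lay within the control range. Over all days the means were 21.3% ± 11.1 (SD, n = 6), 37.0% ± 15.4 and 52.8% ± 29.5, and none of the differences passed after adjustment (exact permutation, IRI short against control p = 0.0714 and adjusted p = 0.107, IRI long against control p = 0.0455 and adjusted p = 0.0772, IRI long against IRI short p = 0.0463 and adjusted p = 0.0772).

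**Figure D4:**
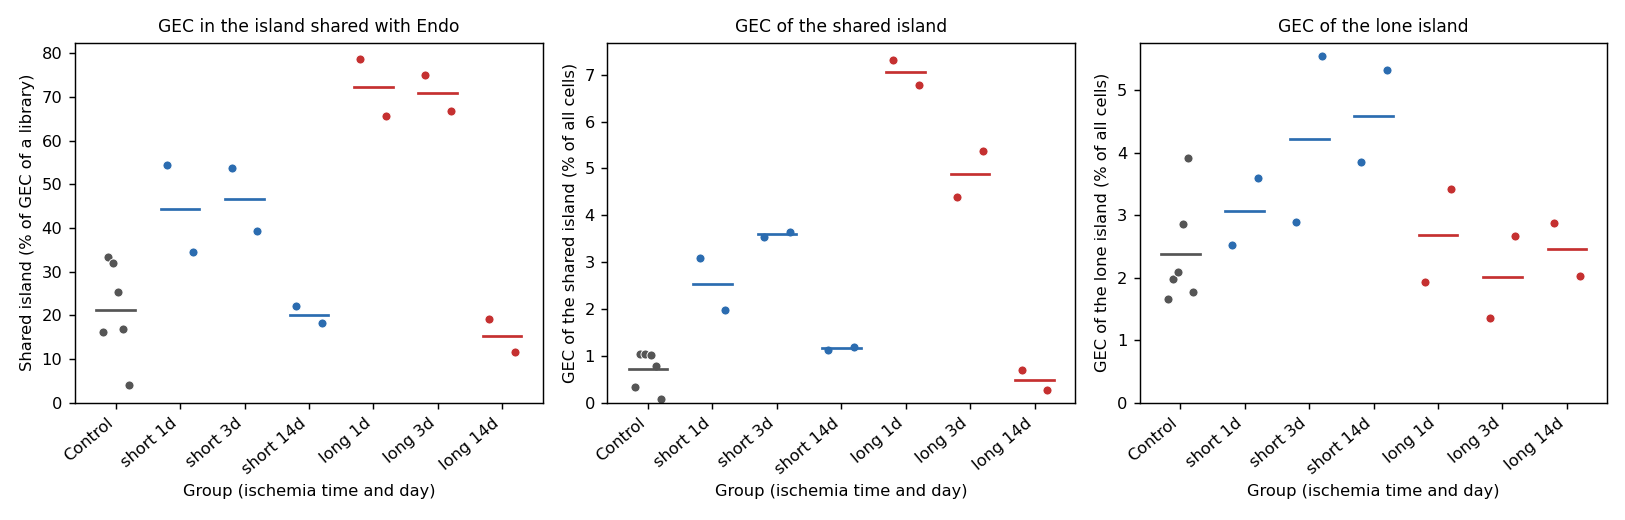
Percentage of GEC that lie on the island shared with Endo (left), and GEC of the shared island (middle) and of the lone island (right) as percentages of all cells, in each library (points) with group means (lines). The shared island part reaches 7.06% of all cells on average in IRI long at 1 d and 0.481% at 14 d, whereas the lone island part of IRI long has means of 2.68, 2.01 and 2.45% at 1, 3 and 14 d, beside 2.38% in control.

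The 2 parts of the cluster were then followed apart, as percentages of all cells. GEC of the shared island made up 0.713% ± 0.412 (SD, n = 6) of control cells, with 0.0750% in norm5 as the lowest and 1.04% in norm1 as the highest value. They made up 2.53, 3.59 and 1.16% on average in IRI short at 1, 3 and 14 d, and 7.06, 4.88 and 0.481% in IRI long. At 1 and 3 d the lowest IRI library exceeded the highest control library, at 14 d both IRI short libraries did so narrowly (1.13 and 1.19%), and both IRI long libraries (0.692 and 0.270%) lay within the control range.

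With GEC split by island, limma found the shared part higher at 1 d by 1.54 in IRI short (adjusted p = 0.0182, with 55.0% of the 20 groups of cells called) and by 2.63 in IRI long (adjusted p = 0.000191, 55.0% called). At 3 d it was higher by 1.93 in IRI short (limma, adjusted p = 0.00297, 65.0% called) and by 2.24 in IRI long (adjusted p = 0.000767, 80.0% called). Without IRF2 the call in IRI short at 1 d was lost (change 1.16, adjusted p = 0.154), and the other 3 calls held without any one library. At 14 d the change was 0.77 in IRI short (interval -0.34 to 1.88, limma adjusted p = 0.231, 45.0% called) and -0.21 in IRI long (interval -1.32 to 0.90, adjusted p = 0.732, 65.0% called). From 1 d to 14 d the shared part fell by 1.81 on the logit scale over both ischemia times (adjusted p = 0.00448, 35.0% called), a call that held without any one library. This change differed between the ischemia times by -2.08 (IRI long minus IRI short), which missed the threshold after adjustment (adjusted p = 0.178, 10.0% called) and passed it only without norm5 (adjusted p = 0.0235).

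GEC of the lone island made up 2.38% ± 0.865 (SD, n = 6) of all cells in control, 3.96% ± 1.24 after short and 2.38% ± 0.747 after long ischemia, with 1.77% in norm5. The difference between IRI long and control was 0.00236 percentage points (exact permutation p = 0.998). By limma it was 0.0051 on the logit scale with an interval from -0.52 to 0.53, with 75.0% of the 20 groups of cells called. A rise or fall within that interval thus remains compatible with these data. No day of IRI long passed the limma test for the lone part, with changes of 0.13 at 1 d, -0.18 at 3 d and 0.062 at 14 d. IRI short exceeded control by 1.58 points (exact permutation p = 0.0325, adjusted p = 0.0741). IRI long differed from IRI short by -1.58 points (exact permutation p within days = 0.0278, adjusted p = 0.0694).

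Counted among non-immune cells, both parts rose. The lone part went from 2.69% in control to 8.22% after short and 8.12% after long ischemia (exact permutation adjusted p = 0.0162 and 0.00928), and the shared part from 0.792% to 5.07% and 11.4% (adjusted p = 0.00928 for each). For the lone part, 5 of 6 IRI short and 6 of 6 IRI long libraries lay above every control library, and for the shared part all 12 did. In norm5 the lone part was 2.15% and the shared part 0.0912% of non-immune cells. Endo made up 29.5% of the endothelial cells of the shared island in control, 35.8% after short and 43.3% after long ischemia on average, which was not tested. The control libraries spread from 11.5% to 50.0% in norm5, where the island held 5 GEC and 5 Endo cells, a range that covers both averages.

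The second annotation, made with 20 libraries, merged the endothelial clusters under the name GEC, Endo, and did not show the 2 islands as separate. Of the 5848 GEC, 5374 (91.9%) carried this merged name, 95.4% of those on the lone island, 89.3% of those on the shared island and 32.6% of those elsewhere. Among the GEC and Endo cells of the merged cluster that were placed by both annotations, GEC of the lone island had 56.9% of their endothelial neighbours from the lone island, which held 45.9% of these cells. GEC of the shared island had 50.3% of such neighbours from the shared island, which held 32.6%. Endo cells, 21.5% of these cells, gave 18.9% of such neighbours for GEC of the shared island and 21.0% for GEC of the lone island.

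The GEC that lost the endothelial name mostly became tubule cells by name. The largest numbers were 195 GEC (3.33%) named PST, a proximal straight tubule cluster, and 82 (1.40%) named PT. Of the 195, 112 came from IRI short, 76 from IRI long and 7 from control. Of the 82, 69 came from IRI long, with 42 from IRF5 and 26 from IRF1, and 65 lay on the shared island. GEC kept an endothelial name in 92.9 to 98.4% of cells in control libraries, 90.1 to 96.9% in IRI short and 83.6 to 96.9% in IRI long, with the lowest values in IRF1 (83.6%) and IRF5 (87.1%), the libraries with the highest GEC shares of all cells. The means, 95.7% ± 1.87 (SD, n = 6), 93.2% ± 2.90 and 92.2% ± 5.52, did not differ beyond the spread between libraries in IRI short (exact permutation p = 0.117) or IRI long (exact permutation p = 0.232). By day, both libraries of each ischemia time lay below every control library at 1 d, with means of 91.1 and 85.3%, and without IRF3 or IRF8 the raw p of IRI short was 0.0433 or 0.0476 (exact permutation). With the renamed cells left out, GEC that kept an endothelial name made up 1.76 to 4.64% of all cells in control libraries, 4.94 to 8.42% after short and 2.24 to 8.997% after long ischemia, and the same 6 IRI short and 4 IRI long libraries lay above every control library.

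Most GEC were surrounded by their own kind in the first map. Map positions and cluster names come from the same integration of the same cells, so a high share of GEC neighbours follows largely from the clustering. The median share of GEC among the 30 nearest cells was 100%, and Endo gave 4.57% of all neighbours. For 298 GEC (5.10%) fewer than 50% of the neighbours were GEC. Per library the mean share of GEC neighbours was 95.1% ± 2.36 (SD, n = 6) in control, 93.5% ± 2.29 after short and 91.7% ± 3.48 after long ischemia, lowest in IRF1 at 87.3%. None of these differences passed (exact permutation p = 0.268 for IRI short and 0.0779 for IRI long against control).

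From the other side, GEC gave 76.1% of the merged cluster in the 18 libraries that both annotations share, Endo gave 20.7% and Myofib, the myofibroblast cluster, gave 1.17%. These 83 Myofib cells were 17.1% of that cluster. Podocytes, the glomerular partners of GEC, were few, with 0 to 30 cells named Podo per library. Pooled over libraries there were 5.10 Podo cells per 100 GEC in control, 1.92 after short and 3.11 after long ischemia. In control, Scl and norm5 held 49 of the 53 Podo cells, so no comparison of this ratio between groups was made.

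The inhibitor libraries can be read only in the second annotation, for GEC and Endo together and without a test, since each is 1 library. With VX-765, 433 of 10610 cells (4.08%, exact Clopper-Pearson interval 3.71 to 4.48%) were in the merged cluster, and with liproxstatin 131 of 12605 (1.04%, interval 0.870 to 1.23%). The 2 IRI long libraries of 14 d without inhibitor were at 4.26 and 2.70%, and the control libraries at 2.00 to 4.96%. The VX-765 library thus lay between the 2 libraries without inhibitor, and the liproxstatin library below every other library of the annotation.

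**Figure D5:**
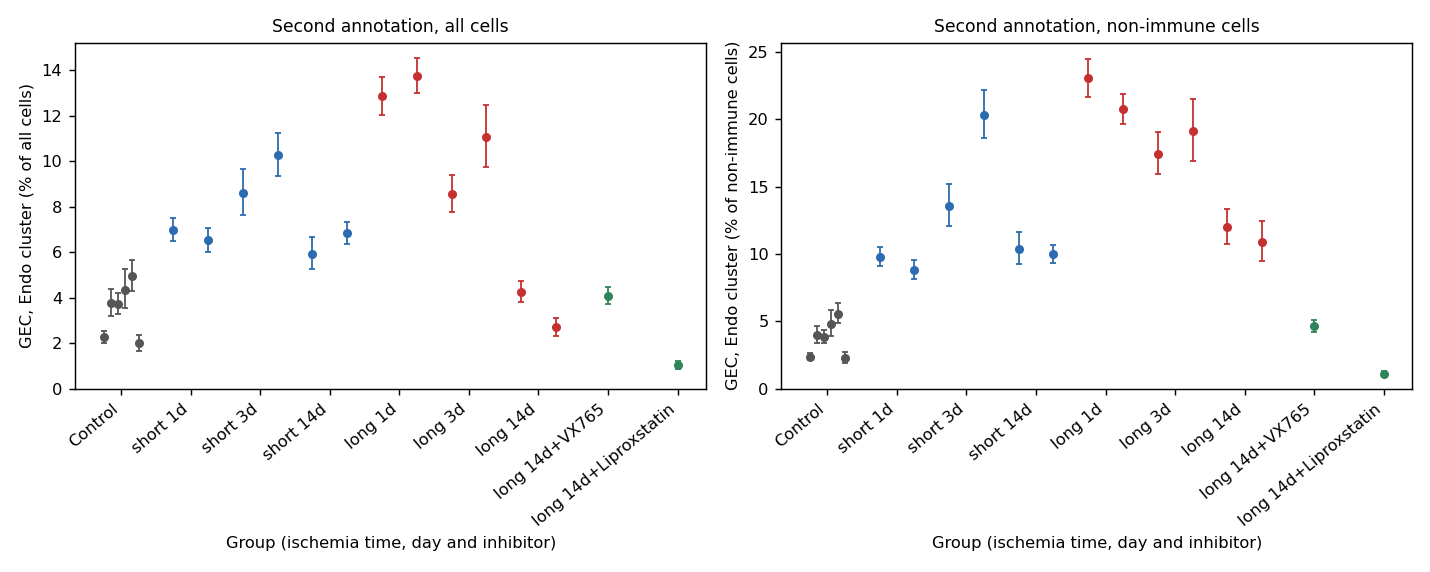
Percentage of the merged GEC, Endo cluster of the second annotation among all cells (left) and non-immune cells of that annotation (right) in each of 20 libraries, with exact 95% binomial intervals (bars) that cover counting error only. The VX-765 and liproxstatin libraries (green) are at 4.63 and 1.10% of non-immune cells, beside 12.0 and 10.9% in the 2 IRI long libraries of 14 d without inhibitor.

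Among non-immune cells the merged cluster made up 4.63% (interval 4.21 to 5.07%) with VX-765 and 1.10% (interval 0.917 to 1.30%) with liproxstatin, against 12.0 and 10.9% in IRI long at 14 d without inhibitor and 2.28 to 5.57% in control. Non-immune cells are here those of the second annotation. It names fewer cells as immune than the first in every shared library, for example 64.5% against 79.0% in IRF9. These shares therefore cannot be set beside those of the first annotation. By the second annotation, immune cells made up 11.8% of the VX-765 library and 5.13% of the liproxstatin library. Differences between these single libraries and the other groups were not tested, and the inhibitor, the mouse and the preparation cannot be told apart in them.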

How the data were processed

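The authors made droplet-based 3′ libraries (10X Genomics), aligned reads to mm10 (Cell Ranger), kept cells within limits on detected genes and mitochondrial reads, left out likely doublets, used LIGER for integration and assigned cluster names by hand, without ambient RNA correction. For the 20 libraries of the second annotation the paper describes filtering and integration with LIGER, but with another number of cells than the 136794 found here. How the second annotation was made is not given in the sources used here for this cell number. The deposited tables give each cell a cluster name, a group label and 2 UMAP coordinates, a score without unit. No UMI counts were used, so depth is the number of cells. Libraries were identified by the start of their cell names and took their group from the deposited group labels; 0 columns of per-sample values were left out.

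The cluster, its comparisons and the alternatives were chosen with earlier results of these data known. For library shares, two-sided exact permutation tests were used (924 ways for 6 against 6 libraries, 216 within days) and adjusted with the Benjamini-Hochberg method over 30 tests. Fractions with 0.5 cells added were compared on the logit scale with limma 3.58.1 in R 4.3.3 with 7 group means, adjusted over 18 clusters at 0.05. The fit was first run on simulated data with planted rises larger than those of GEC over all days. That run required only that planted rises were found, and set no limit on false calls. The split by island was added after seeing the data (DBSCAN, radius 0.5, at least 10 cells) and adjusted over 20 groups of cells. Non-immune cells of the first annotation are those outside 8 immune clusters. In the second annotation they are those outside its neutrophil, macrophage, T cell, NK (natural killer) and B cell clusters, which is another set of cells. Intervals are exact 95% Clopper-Pearson intervals. Clusters named beside GEC are Endo, Podo, Myofib and those that exchanged at least 1% of cells with GEC between annotations or made up at least 1% of their neighbours. Alternatives were the logit and arcsine scales, pooled cells, the centred log-ratio, separate fits for immune and other clusters, thinning to 2064 cells, the second annotation, a filter of 10 cells in 2 libraries, 15 or 60 neighbours, permutation without days, the barcode set as a term and leaving out each library. Those chosen after seeing the data were norm5 as the only control, GEC with a kept name alone, the island radius (0.3 or 1), and a denominator without PT cells. Other software was scikit-learn 1.9.0, scipy 1.17.1, pandas 2.3.3, matplotlib 3.10.9 and numpy 2.4.6 in python 3.11.15.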

Additional observations from a re-analysis of the deposited data

Results flagged for a closer look

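Library IRF11 (IRI short, 3 d) lay far above the other 5 IRI short libraries in its share of GEC, at 9.28% of all cells and at 24.9% of non-immune cells, with gaps to the next library that took up 0.649 and 0.695 of the range of the group. The other library of that day, IRF3, was at 6.57% and 14.0%. Of 30 groups of libraries examined in this way 2 held such a library, both times IRF11 with the same GEC in the numerator. The nominal rate of this rule is about 1 in 20 groups, which was not checked on these data. Days were pooled within the group, and whether day or library sets IRF11 apart was not tested.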

How the results depend on the processing

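The rise of GEC in IRI short kept its direction in all alternatives run except the centred log-ratio, where it turned. The rise of both ischemia times among non-immune cells and the fall of GEC among endothelial cells against control kept theirs in all alternatives run. These results also kept an unadjusted p under 0.05 in the alternatives that gave a p by permutation. Over 36 results, 116 of 152 alternatives and 446 of 504 fits without 1 library were counted as unchanged. Where a test was run, this meant the same direction and call. An alternative without a test was counted so if it lay within the larger group SD of the main value. The inhibitor shares were counted so if they lay within the counting interval. The filter of 10 cells in 2 libraries removed no cluster, so its fits repeat the main fits and could not differ. For the shared island, both other radii gave the main difference between ischemia times, 15.8 points. On the centred log-ratio scale GEC moved against control by -0.35 (IRI short) and -0.28 (IRI long), -0.46, -0.31 and -0.27 in IRI short at 1, 3 and 14 d, 0.19, -0.42 and -0.62 in IRI long at 1, 3 and 14 d, with none past the threshold, and the contrast of IRI long with IRI short was 0.069. Where immune and other clusters were fitted separately, IRI short changed by 1.08 at 1 d and 1.33 at 14 d on the logit scale (both now past the threshold), 1.57 in IRI long at 14 d (now past it), 0.49 for IRI long against IRI short (0.30 at 3 d and 0.25 at 14 d) and 0.50 for 3 d against 1 d. In the second annotation only GEC and Endo together could be fitted. The changes of this merged cluster were 0.74 in IRI short at 1 d (now past the threshold), 0.017 in IRI long at 14 d, 0.042 between the ischemia times (0.038 at 3 d), 0.0046 for 3 d against 1 d and -0.77 for 14 d against 1 d (now past it). In the first annotation Endo rose by 1.91 in IRI short at 1 d and GEC by 0.67. The added Endo cells and the change of annotation therefore cannot be told apart in these values. Among the non-immune cells of the second annotation, the merged cluster was higher in IRI long than in IRI short by 5.07 points, with a raw p no longer under 0.05. The share among endothelial cells could not be given there, because its clusters are merged. With the barcode set as a term the changes of GEC were 1.14 (1 d) and 1.16 (14 d) in IRI short, both now past the threshold, and 0.44 in IRI long at 14 d, and the rises over all days grew from 0.78 to 1.26 (IRI short) and from 0.69 to 1.17 (IRI long). On the arcsine scale IRI short at 1 d (0.065) and 14 d (0.067), 14 d against 1 d (-0.072) and the difference of that change between ischemia times (-0.15) passed. Permuted without days, IRI long against IRI short (6.25 points among non-immune cells, -8.99 among endothelial cells), past the threshold by raw p only, no longer had a raw p under 0.05, and in libraries thinned to the smallest the latter was -5.53 and the GEC neighbour share of IRI short against control was 0.643. IRI long against IRI short among all cells was -0.091 on the logit scale. With norm5 as the only control, IRI short exceeded it by 33.1 points on the shared island. For VX-765 the merged cluster made up 4.63% of the non-immune cells of the second annotation. The cause of these shifts was not tested.

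Leaving out 1 library at a time changed a call or a direction for these results, with ranges of 2.66 to 4.26 points for IRI long against control among all cells, -0.662 to 0.937 for IRI long against IRI short among all cells, 4.82 to 8.53 among non-immune cells and -11.9 to -6.82 among endothelial cells. For the kept name they were -3.25 to -1.88 (IRI short against control) and -1.88 to 0.782 (IRI long against IRI short), and for the neighbours of IRI long against control -4.17 to -2.46. On the shared island they were 12.3 to 19.6 (IRI short against control), 26.4 to 39.8 (IRI long against control) and 10.6 to 24.0 (IRI long against IRI short). Logit changes ran from 0.57 to 0.76, 0.82 to 1.19 and 0.55 to 0.81 in IRI short at 1, 3 and 14 d, 0.69 to 1.04 and -0.26 to 0.19 in IRI long at 3 and 14 d, -0.33 to 0.047 for IRI long against IRI short at 3 d and -0.12 to 0.068 for 3 d against 1 d. No paired analysis was possible because the cell names carry no replicate number of the sample list. With 2 libraries per ischemia time and day, and as few as 91 GEC and 3 Endo cells in a library, differences between single days are limited by both.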
